A study of Mus musculus with 24 samples.

Results

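The cerebellum of neonatal C57BL/6J mice that received the vehicle alone is described here, from the 12 libraries labelled Vehicle among 24 in the series. These libraries were chosen by that label and by no measured value, and the ethanol libraries were not used. The study, which calls the group Control, gave these animals intralipid with water in place of ethanol by intragastric gavage from P4 on, and killed them at P5 or P6 after perfusion with heparinised buffer. Every animal had thus been handled, gavaged and given lipid, and the group holds no untouched animal. Each library held the RNA of 1 animal, named by its number. The study drew 1 male and 1 female per treatment from each of 6 litters, but the labels tie no animal number to a litter, an age or a sex. In numerical order the 12 numbers fall into 6 runs of 2 neighbours, called runs 1 to 6 here: X4570 and X4571, X4677 and X4679, X4685 and X4686, X4695 and X4697, X4761 and X4762, and X4768 and X4770. Age, litter, dissection and handling cannot be told apart between runs. The labels give the tissue as brain and the study as cerebellum.

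In the first week after birth the mouse cerebellum is still being built. Granule cell precursors divide in the external granular layer in response to Sonic hedgehog from Purkinje cells, leave the cycle, and migrate inward along Bergmann glia to become granule neurons. Interneurons arise from dividing precursors in the white matter, oligodendrocytes are starting to make myelin, and the choroid plexus of the fourth ventricle, the meninges and the brainstem lie directly against the tissue.

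Total estimated counts ranged from 29039888 to 38696615 per animal (median 32396077). The closest of the 66 pairs of libraries had a mean chi-square of 4.95 per gene, where sampling of reads alone gives 1, so no 2 libraries differed by as little as sampling noise. A few libraries stood apart. X4761 and X4770 were nearly without Ttr, the transthyretin gene of the choroid plexus (2.61 and 1.15 CPM), and X4768 was low in it (703 CPM), against 1992 to 5031 CPM in the other 9. X4677 and X4762 held Hoxa5, a gene of the hindbrain and spinal cord, at 12.98 and 21.4 CPM, while the other 10 were at 0.699 CPM or lower. Xist, the noncoding RNA of X inactivation, stood at 827 to 1012 CPM in 6 animals, 1 in each run, and at 1.00 CPM or lower in the other 6. CPM means counts per 1000000 of the library size scaled by TMM factors, which lay between 0.989 and 1.01. Levels of different genes are compared only per length, as counts per kilobase of annotated exon scaled to 1000000. All values come from bulk tissue, so fewer cells of a type and less RNA per cell cannot be told apart.

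The animals used a broad and similar repertoire. Between 24604 and 25511 genes had at least 1 count in an animal, and 15153 to 15475 reached 1 CPM. On average over the 12 animals, 52 genes lay above 1000 CPM, 2482 between 100 and 1000, 8482 between 10 and 100, and 4396 between 1 and 10. The 100 most counted genes took 14.9% ± 0.248 of the counts (SD, n = 12), and 1391 to 1446 genes were needed to hold 50% of them. Protein-coding genes took 96.9% ± 0.106, the mitochondrial genome 3.29% ± 0.142 and ribosomal protein genes 2.76% ± 0.150.

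The most counted gene was mt-Co1, a subunit of cytochrome oxidase, at 10734 ± 371 CPM (SD, n = 12). Tuba1a, the alpha tubulin of young neurons, followed at 5698 ± 179.5 CPM, and Eef1a1, a translation elongation factor, at 5625 ± 276 CPM. The 20 most counted genes otherwise held further mitochondrial genes, the tubulins Tubb5 and Tubb2b, the actins Actg1 and Actb, the chaperones Hsp90ab1 and Hspa8, Eef2 and Ttr. Ttr, at a mean of 2454 CPM, ran from 1.15 to 5031 CPM between animals. The rows Gm28661, Gm28437 and Gm10925 among the 20 are nuclear copies of mitochondrial genes. In all, 6 such copies took 1.04% ± 0.0545 of the counts, and their split from the mitochondrial originals is uncertain because near-identical copies share reads. Per length, mt-Co1 stood at 18606, Tuba1a at 8462, Eef1a1 at 8394, Ttr at 5532, Actg1 at 3658 and Ptma, a small acidic nuclear protein, at 3477.

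Genes of the granule lineage were high, and those of precursors were even between animals. All 13 precursor genes lay above 1 CPM in all animals, and their sum was 2868 to 3334 CPM. Per length, the mean level was 533 for Zic1, a transcription factor of the lineage, and 267 and 146 for Ccnd2 and Ccnd1, the D cyclins of dividing precursors. It was 29.0 for Atoh1, the factor that specifies granule precursors, and 4.002 for Hhip, a decoy receptor for hedgehog. Atoh1 ranged from 19.2 to 27.7 CPM (median 23.2). Ccnd1 was the precursor gene of widest spread, from 133 CPM in X4768 to 249.5 CPM in X4679. The 12 genes of early granule neurons summed to 3262 to 4459 CPM. They were led per length by Tubb3 (1093), a neuronal tubulin, and Neurod1 (407), a factor that drives granule cell differentiation.

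Of the 11 genes of mature granule neurons, Snap25 (328), of the synaptic vesicle machinery, and Cbln1 (316), which builds synapses onto Purkinje cells, were highest per length. Gabra6, the GABA receptor subunit of mature granule cells, was low at 4.65 per length. It ran from 1.28 CPM in X4685 to 16.02 CPM in X4768, with a median of 2.75 CPM, and the animal next to the top, X4695, was at 6.42 CPM. Gabrd, another receptor subunit of these cells, likewise stood at 14.2 CPM in X4768 and at 2.09 to 5.61 CPM in the other 11.

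Purkinje cell genes were present throughout, with all 17 above 1 CPM in every animal and sums of 2029 to 2580 CPM. Per length the highest were Pcp4 (934), a calmodulin-binding peptide, Car8 (318) and Calb1 (244), a calcium-binding protein. Car8 stood at 458 ± 22.7 CPM (SD, n = 12) and Calb1 at 384 ± 24.0 CPM. The members of widest spread were Ppp1r17, a phosphatase inhibitor (3.33 to 16.6 CPM), and Rgs8, a regulator of G protein signalling (51.3 to 144 CPM). X4768 was the highest animal for both and for the Purkinje cell sum.

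The 12 genes of inhibitory interneurons gave the narrowest sum of the neuronal lists, 654 to 714 CPM. Gad1, the GABA-synthesising enzyme, stood at 196 ± 9.49 CPM and Kit, the receptor of basket and stellate cells, at 138 ± 3.96 CPM (SD, n = 12). Pax2, the factor of newly born interneurons, lay at 34.7 to 43.3 CPM. Pvalb, which marks mature interneurons and Purkinje cells, was the most variable at 5.30 to 23.6 CPM, again highest in X4768. Slc6a5, the glycine transporter, was at 54.2 CPM in X4762 and at 17.6 to 33.6 CPM elsewhere. The 8 genes of unipolar brush cells and cerebellar nuclei were low, summing to 136 to 227 CPM. Per length, Slc17a6, the vesicular glutamate transporter of nuclear neurons, stood at 55.0, Eomes, the factor of unipolar brush cells, at 25.4 and Tbr1, a factor of nuclear neurons, at 1.45.

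Astrocyte and Bergmann glia genes held a narrow sum of 5534 to 6185 CPM. Fabp7, the fatty acid binding protein of radial and Bergmann glia, reached 1811 per length, Slc1a3, the glutamate transporter GLAST, 908, and Ndrg2 496. Slc1a3 stood at 1494 ± 73.2 CPM (SD, n = 12). Gfap, the intermediate filament of astrocytes, spread widely, from 164 CPM in X4685 to 517 CPM in X4761. Its highest run mean was 2.65 times its lowest. The same ratio was 1.49 for Aqp4 and 1.61 for Gjb6, 2 further genes of the list. The 10 genes of oligodendrocyte precursors summed to 464 to 598 CPM, with Pdgfra, their growth factor receptor, at 158 ± 11.8 CPM.

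Myelin genes had the widest median spread of the lists of neurons and glia. The sum of 16 genes ran from 742 CPM in X4685 to 2129 CPM in X4768, with a median of 1073 CPM. Mbp, the basic protein of compact myelin, was at 250.4 to 471 CPM in 10 animals and at 802 and 841 CPM in X4762 and X4768. Mobp, a small myelin protein, was at 11.4 to 43.5 CPM in the same 10 and 117 and 112 CPM in the other 2. X4762 and X4768, picked after the values were seen, were the highest pair for 15 of the 16 genes. The share of all genes with this pair highest was not counted. Opalin, a late gene of the lineage, was at 0.291 CPM or lower in every animal. X4762 was 1 of the 2 animals high in Hoxa5 and X4768 (0.699 CPM) was not, and the part of neighbouring white matter in the myelin values was not tested.

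**Figure D1:**
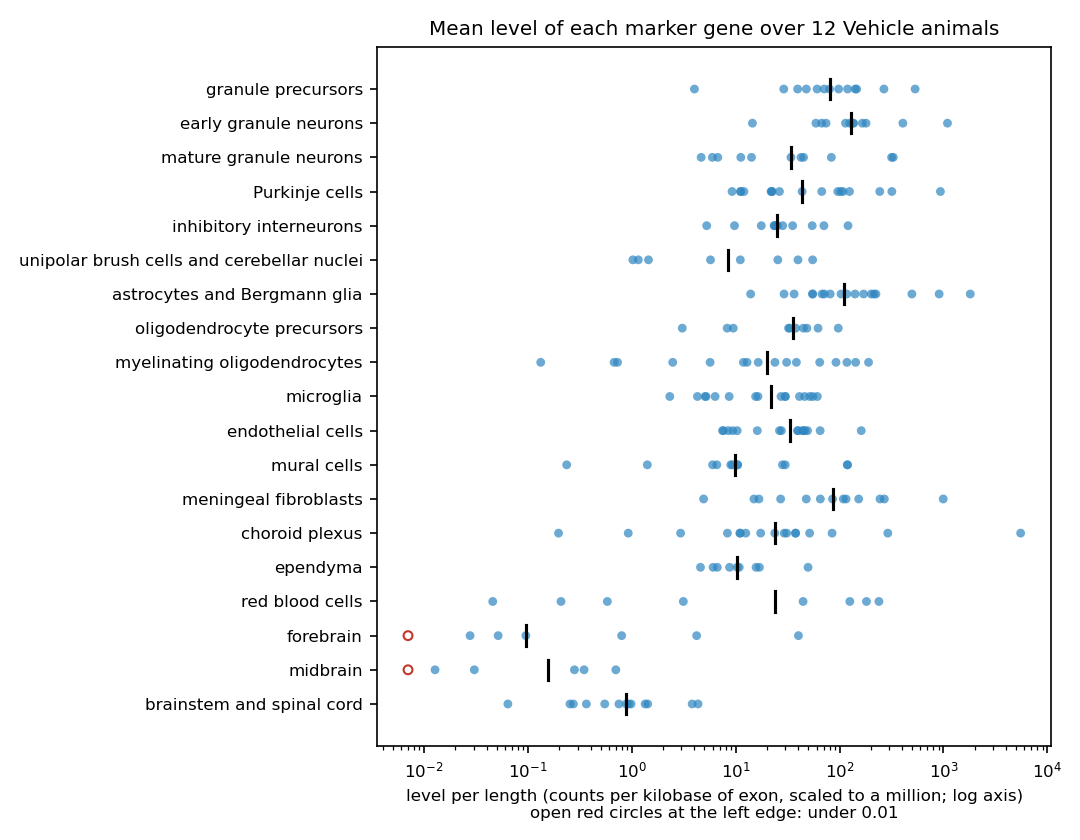
Mean level per length of each marker gene (1 point per gene, log axis, n = 12 animals), grouped by cell type or neighbouring region, with a black tick at the median of each list and open circles for genes below 0.01. Early granule neurons and astrocytes have the highest medians (129.8 and 110.2), and forebrain and midbrain the lowest (0.095 and 0.155).

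Microglia genes were low, and all 16 were above 1 CPM in all animals. Per length, the complement genes C1qb, C1qc and C1qa stood at 55.3, 51.6 and 46.1, Csf1r, the receptor on which microglia depend, at 30.0, and Tmem119 at 5.07. The sum ran from 239.7 CPM in X4686 to 358 CPM in X4762. The summed levels of vascular genes were narrow. The 16 endothelial genes summed to 616 to 716 CPM, and the 12 genes of pericytes and smooth muscle to 461 to 516 CPM. Cldn5, a tight junction protein of the blood-brain barrier, was at 75.4 to 95.5 CPM and Rgs5, a pericyte gene, at 186 to 219 CPM. The median BCV, an estimate of the spread between animals relative to the mean, was 7.12% for the endothelial and 11.2% for the mural genes. Slco1a4, a transporter of brain endothelium, was at 12.7 and 15.8 CPM in run 1 and 7.54 and 6.85 CPM in run 6 (adjusted p between runs = 0.0144, edgeR quasi-likelihood test).

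The borders of the tissue varied widely. Choroid plexus genes summed to 130.3 CPM in X4770, 142 CPM in X4761 and 1012 CPM in X4768, and to 2516 to 6184 CPM in the other 9. X4761 and X4770, picked after the values were seen, were the lowest pair for 16 of 17 genes. The share of all genes with this pair lowest was not counted. Folr1, the folate receptor of the plexus, was at 1.29 and 0.236 CPM in them and at 5.39 to 42.6 CPM in the other 10. Prlr, the prolactin receptor, was the exception (0.419 and 0.413 CPM, with 0.390 CPM in X4679). Enpp2, which makes lysophosphatidic acid, kept 85.0 and 90.9 CPM in the 2 animals, and Otx2, a transcription factor of the plexus and of other cells, 42.5 and 26.6 CPM.

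Meningeal genes were low in the same libraries. X4761, X4768 and X4770 were the lowest 3 animals for 13 of 13 genes of meningeal fibroblasts. The sum was 1200, 1430 and 1457 CPM in them and 1974 to 2269 CPM in the other 9. These 3 animals were picked after the values were seen, and the share of all genes with them lowest was not counted. Igf2, a growth factor made by meninges and plexus, was at 311 to 366 CPM in these 3 and at 518 to 672 CPM elsewhere. The part of dissection in this was not tested.

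Ependymal genes, which serve the cilia of the ventricle lining, were low, with sums from 25.8 CPM in X4770 to 68.7 CPM in X4570. Foxj1, the factor that switches on motile cilia, ran from 7.82 to 25.2 CPM. Globin genes, which red cells carry, ran over a wider range, and the part of blood left after perfusion in them was not tested. Hbb-bs, an adult beta globin, went from 26.2 CPM in X4695 to 102 CPM in X4686, and Hba-a2, an alpha globin, from 16.7 to 68.8 CPM. Alas2, the heme synthesis gene of red cell precursors, was at 0.745 to 4.78 CPM.

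Genes of neighbouring brain regions were near the floor, with named exceptions. Emx1, which marks the dorsal forebrain, was at 0.125 CPM or lower, and Dlx6 had 0 counts in all 12, which allows up to 0.00761 CPM by counting error alone. Neurod6, though listed with the forebrain, stood at 32.2 ± 1.74 CPM (SD, n = 12). Th and Slc6a3, genes of midbrain dopamine neurons, did not pass 0.928 and 0.584 CPM. The 13 genes of brainstem and spinal cord summed to 45.9 CPM in X4677 and 74.9 CPM in X4762, and to 9.46 CPM or lower in the other 10. Hoxb5 was at 12.6 and 18.3 CPM in these 2 and at 0.320 CPM or lower elsewhere. X4762, picked after the values were seen, was the highest animal for 12 of the 13 genes. The share of all genes with X4762 highest was not counted. Hoxb8, a more caudal gene chosen after its values were seen, was at 17.4 CPM in X4677 and 2.27 CPM in X4762, the opposite order.

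**Figure D2:**
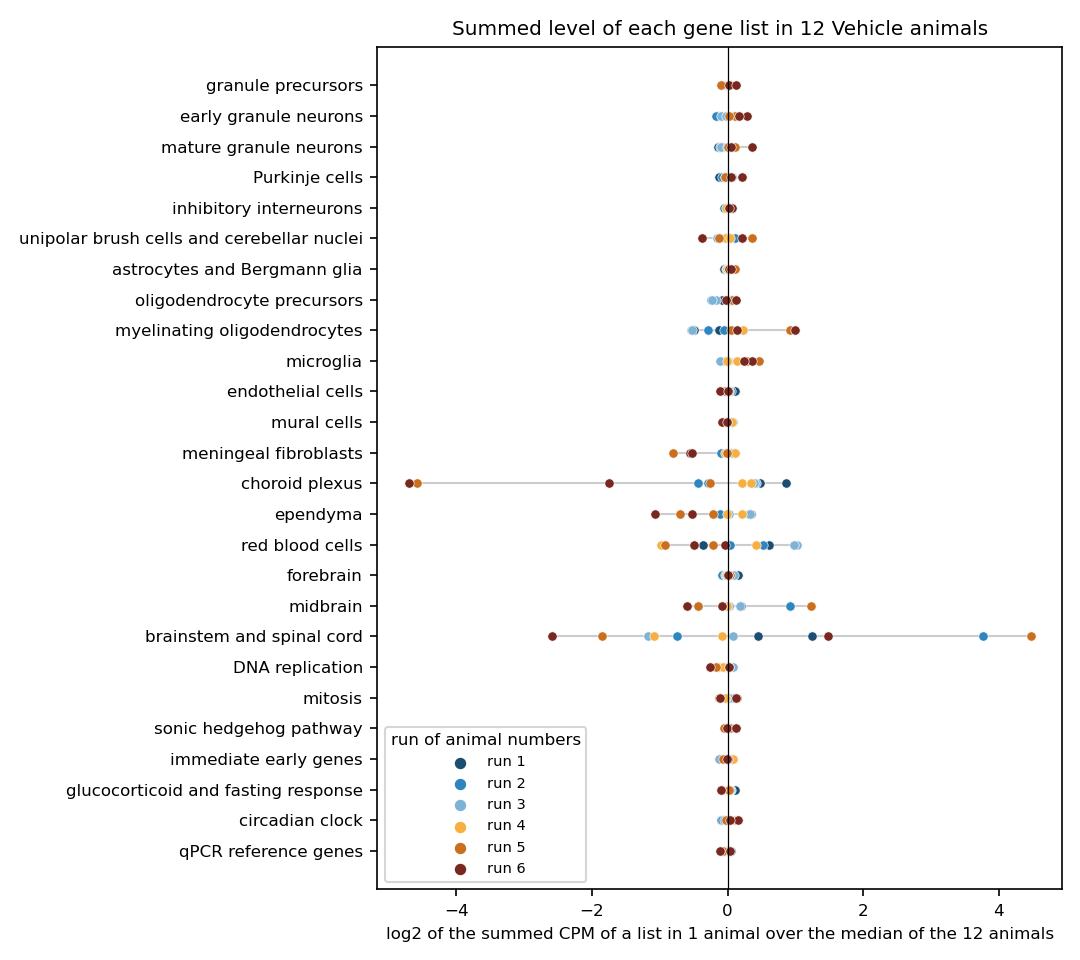
Summed CPM of each gene list in each of the 12 animals, as log2 of the ratio to the median of the 12 (1 point per animal, coloured by run; the sex chromosome list is left out). The choroid plexus and the brainstem and spinal cord lists spread most (130.3 to 6184 and 0.561 to 74.9 CPM), while the interneuron list stays within 654 to 714 CPM.

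Genes of proliferation were high and even. The 19 genes of DNA replication summed to 1556 to 1984 CPM and the 19 genes of mitosis to 2020 to 2426 CPM. Per length, Pcna, the sliding clamp of DNA polymerase, stood at 375, Top2a, which untangles replicated DNA, at 194, Ccna2, cyclin A, at 135 and Mki67, the proliferation antigen, at 106. Mki67 ranged from 366 to 437 CPM. X4768 and X4762, the highest animals for myelin genes, were the lowest for replication (1556 and 1652 CPM) and for mitosis (2038 and 2020 CPM). In the Sonic hedgehog pathway the ligand Shh stood at 3.27 ± 0.288 CPM, the receptor Ptch1 at 139 ± 5.55 CPM, the transducer Smo at 130.5 ± 7.85 CPM and the effector Gli1 at 92.0 ± 6.93 CPM (SD, n = 12). All 13 genes of the pathway were above 1 CPM in all animals.

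Genes that can answer to handling were moderate. Immediate early genes summed to 175 to 202 CPM, with Jun, a subunit of the AP-1 factor, at 45.2 to 61.0 CPM, Fos, its partner, at 6.38 to 16.2 CPM and Npas4, which follows neuronal activity, at 2.15 to 4.09 CPM. The glucocorticoid and fasting list summed to 431 to 496 CPM, with Fkbp5, a chaperone induced by glucocorticoids, at 54.4 to 68.5 CPM. Clock genes had a median BCV of 9.90%, above the 8.85% of all genes, with Cry2, a repressor of the core loop, at 78.3 to 88.1 CPM and Per1, another, at 31.98 to 48.0 CPM, while Dbp, a clock output, ran from 6.31 to 12.4 CPM.

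To ask how far the animals differed beyond sampling of reads, each gene was tested against Poisson counts. Of the 18898 genes with enough counts, 14131 varied beyond counting error at an adjusted p under 0.05 (74.8%). Of the 362 listed genes among them, 352 did (97.2%). The size of the spread is given as the biological coefficient of variation (BCV), an estimate of the spread between animals relative to the mean beyond counting error. The estimate of each gene is drawn toward that of genes of similar level. For steady genes it can exceed the whole observed spread, as for Gapdh (BCV 5.11%, SD over mean 2.25%). The median BCV over genes was 8.85% and its 10th and 90th percentiles were 4.69% and 27.5%. The BCV was under 10% for 10381 genes and 25% or more for 2316.

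Of the 27 lists, 8 had a median BCV under that of all genes. These were the reference genes of quantitative PCR (5.90%), astrocytes and Bergmann glia (6.71%), mitosis (6.98%), endothelial cells (7.12%), the Sonic hedgehog pathway (7.35%), DNA replication (7.36%), granule precursors (7.49%) and inhibitory interneurons (7.54%). Among reference genes, Sdha, of the respiratory chain, had a BCV of 4.55%, Gapdh, a glycolytic enzyme, 5.11% and Tfrc, the transferrin receptor, 8.36%. Gapdh stood at 1646 ± 37.1 CPM (SD, n = 12). Apart from sex chromosome genes, the widest medians were those of brainstem and spinal cord (133%), choroid plexus (77.2%), midbrain (40.3%), red blood cells (39.2%), myelin (35.6%) and ependyma (30.7%).

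The steadiest genes above 32 CPM were Ankfy1, an endosomal protein, Lonp2, a peroxisomal protease, and Derl1, which helps export misfolded proteins from the endoplasmic reticulum. Ankfy1 stood at 91.7 ± 1.39 CPM (SD, n = 12), from 89.7 to 94.8 CPM. Its BCV was 3.23%, above its observed SD over mean of 1.52%, and it did not pass the test against counting error (adjusted p = 0.772). The most variable genes above 4 CPM fell into few kinds. Xist and the Y-linked genes Ddx3y, Uty, Kdm5d and Eif2s3y split the animals into 6 and 6. Ttr (BCV 121%), Sostdc1, Mfrp, Slc4a5, Folr1, Tmem72 and Kcne2 were lowest in X4761 and X4770. The widest was Rpl35a-ps2, a ribosomal protein pseudogene, at 10.7 to 12.9 CPM in 5 animals and 0 in 7. Rpl35a-ps6, a copy of the same family, was at 7.68 to 11.9 CPM in 5 of those 7, so the split of shared reads between copies is uncertain.

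**Figure D3:**
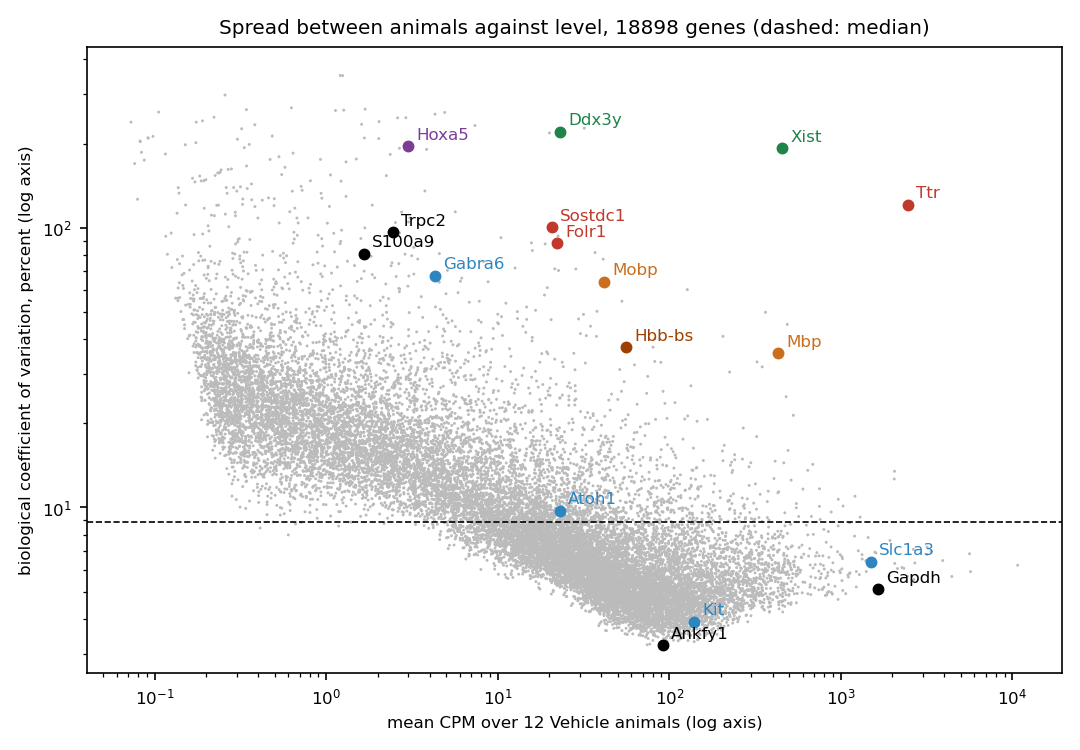
Biological coefficient of variation (percent, log axis) against mean CPM (log axis) for 18898 genes, 1 point per gene, with some genes named and a dashed line at the median of 8.85%. Ttr (121%), Xist (192%), Hoxa5 (196%) and Gabra6 (67.5%) lie far above the line, while Gapdh (5.11%), Kit (3.91%) and Ankfy1 (3.23%) lie below it.

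Principal components of log2 CPM were led by the same genes. Component 1 took 24.1% of the variance, with Ttr, Prr32, Sostdc1, Mfrp, Slc4a5, Cldn1, Folr1 and Tmem72 among the 10 heaviest genes on its negative side. S100a8 and S100a9, neutrophil genes, were among the 10 on the positive side. X4770 and X4761 lay at 44.6 and 43.4 on it and X4768 at 22.9, while the other 9 lay between -20.9 and -4.53. Components 2 and 3 (12.9% and 11.2%) set Xist against Y-linked genes. Hoxa5 and Hoxb5 were among the 10 heaviest genes on 1 side of both, and X4762 lay at -40.5 on component 3.

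The runs of animal numbers were the one further grouping that the labels offer. Over all genes, 2 animals of a run were about as far apart as animals of different runs. The root mean square difference of log2 CPM was 0.421 to 0.584 (median 0.462) in the 6 pairs within runs and 0.380 to 0.599 (median 0.487) in the 60 pairs between runs. Each pair within a run joined 1 animal high and 1 low in Xist, while pairs between runs were of both kinds. Xist and the Y-linked genes thus add to every distance within runs and only to some between runs. Of 18898 genes, 378 differed between the 6 runs (edgeR quasi-likelihood test, adjusted p under 0.05), a share of 2%, and 2566 had an unadjusted p under 0.05. The ratio of the highest to the lowest run mean was at least 1.5 for 174 of the 378 and at least 2 for 77. Run 6 held the highest mean for 192 of the called genes and the lowest for 134, and run 1 the highest for 101 and the lowest for 152. The count leaned on single libraries. It was lower leaving out any 1 of 9 animals, down to 71 without X4571, and 701, 901 and 691 without X4761, X4762 and X4770. Leaving out both animals nearly lacking Ttr gave 1691, and leaving out both high in Hoxa5 gave 702. Of 23 genes followed through all settings, 14 were called wherever they were tested, and the account below begins with them.

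Several of the genes of smallest p belong to neutrophils, the granulocytes of the blood. S100a8 and S100a9, the calprotectin subunits that fill the neutrophil cytoplasm, were low in runs 1 to 4 and high in runs 5 and 6. S100a9 was at 0.372 to 0.750 CPM in the 8 animals of runs 1 to 4, at 4.41 and 5.16 CPM in run 5 and at 2.30 and 3.34 CPM in run 6 (adjusted p = 0.000621). S100a8 was at 0.162 to 0.682 CPM in the 8 animals and 1.95 to 3.30 CPM in the 4 (adjusted p = 0.000621). Ngp, neutrophilic granule protein, was at 0.246 to 0.438 CPM in the 8 and 1.02 to 2.48 CPM in the 4 (adjusted p = 0.000952). Ltf, lactoferrin of the secondary granules, was at 0.180 to 0.780 CPM in the 8 and 1.34 to 2.37 CPM in the 4 (adjusted p = 0.00244). The groups did not overlap for these 4 genes. Of all genes tested, 1.14% had the 4 animals above the 8 in this way. This split of the runs was chosen after the values were seen. The highest run mean was 8.96 to 11.6 times the lowest.

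The levels behind this were small, since S100a9 had 13 to 24 counts in each of the 8 animals and 79 to 150 in each of the 4. Further neutrophil genes were chosen after these values were seen. Retnlg was at 0.0257 to 0.180 CPM in the 8 and 0.320 to 0.483 CPM in the 4 (adjusted p = 0.0572), and Mmp8 at up to 0.114 CPM in the 8 and 0.138 to 0.413 CPM in the 4 (adjusted p = 0.054). Camp was at 0.0308 to 0.219 CPM and 0.161 to 0.379 CPM (adjusted p = 0.268), and Mmp9 at 4.08 to 5.78 CPM over all 12 (adjusted p = 0.636). Mpo and Elane, genes of neutrophil precursors, had too few counts to be tested, at up to 0.172 and 0.0688 CPM. The red cell globin gene Hbb-bs was at 27.8 to 48.0 CPM in runs 5 and 6 and at 94.8 and 102 CPM in run 3. X4762 of run 5 had the highest S100a9 (5.16 CPM), with a choroid plexus sum of 2839 CPM. The part of remaining blood or of dissection in the neutrophil genes was not tested.

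Because these 4 genes were high in the same animals, the 150 bases before the start of each are printed, 5′ to 3′ on the strand of the gene, from RefSeq on GRCm38.p6, with capitals where a short motif was found on either strand. The motifs searched were TTNNGCAA, a core of sites for C/EBP factors, which drive granule genes, and GAGGAA, a core of sites for PU.1, a factor of myeloid cells. S100a8 has its window at chr3:90668921-90669070 on the plus strand and S100a9 at chr3:90695722-90695871 on the minus strand. Ngp has it at chr9:110419658-110419807 and Ltf at chr9:111019142-111019291, both on the plus strand.
S100a8: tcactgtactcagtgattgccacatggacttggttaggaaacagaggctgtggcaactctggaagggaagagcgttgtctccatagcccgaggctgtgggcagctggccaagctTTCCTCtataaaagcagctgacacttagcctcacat
S100a9: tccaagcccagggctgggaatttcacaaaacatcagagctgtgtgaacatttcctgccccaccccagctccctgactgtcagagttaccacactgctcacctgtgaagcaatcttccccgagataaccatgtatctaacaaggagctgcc
Ngp: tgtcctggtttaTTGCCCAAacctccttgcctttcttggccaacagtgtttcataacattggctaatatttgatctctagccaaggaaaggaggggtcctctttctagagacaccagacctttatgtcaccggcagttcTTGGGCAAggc
Ltf: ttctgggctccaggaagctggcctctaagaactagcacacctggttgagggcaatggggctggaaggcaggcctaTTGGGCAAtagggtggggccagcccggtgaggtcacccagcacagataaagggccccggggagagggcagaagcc
Ngp held 2 matches to the C/EBP letters and Ltf 1, S100a8 held 1 match to the PU.1 letters, and S100a9 held neither. Of 32851 promoters cut to the same length, 5.46% held the C/EBP letters and 14.5% the PU.1 letters. No matches of the 2 motifs overlapped. A match describes the letters only.

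Some microglia genes were high in the same runs. Of 16 genes, 7 differed between runs (Cx3cr1, C1qa, C1qb, C1qc, Fcrls, Itgam and Ctss), where 2% of all genes did. For 9 of the 16, every animal of runs 5 and 6 lay above every animal of runs 1 to 4, against 1.14% of all genes. C1qb, a chain of complement C1q, was at 17.8 to 22.1 CPM in the 8 animals and 27.0 to 32.3 CPM in the 4 (adjusted p = 0.00244). Itgam, the integrin CD11b that microglia and neutrophils both carry, was at 5.09 to 6.69 CPM in the 8 and 9.74 to 13.9 CPM in the 4 (adjusted p = 0.00244). Fcrls, an Fc receptor-like gene of microglia, was at 18.4 to 24.1 CPM and 25.3 to 31.1 CPM (adjusted p = 0.00933). Csf1r was at 48.4 to 55.4 CPM in the 8 and 52.7 to 65.5 CPM in the 4, and did not pass the test (adjusted p = 0.729). Sall1, Tmem119 and Siglech did not pass either (adjusted p = 0.834, 0.92 and 0.856). Sall1 had its highest run mean in run 6 (18.7 CPM), but Tmem119 had its lowest there (3.63 CPM). Siglech had its lowest run mean in run 5 (2.61 CPM), as did P2ry12, a microglia gene not among the 7 (4.66 CPM). The count of 7 was 3 without X4570, X4571, X4677, X4679 or X4695 and 4 without X4697, where the count over all genes was 128, 71, 145, 165, 129 and 126 in the same order. C1qb and Itgam were called in all 27 settings, and Cx3cr1 in 8 of them.

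Serpina3n, a protease inhibitor of reactive astrocytes, was at 2.96 to 6.15 CPM in the 8 animals and 6.17 to 10.3 CPM in the 4 (adjusted p = 0.000952). Gfap was at 164 to 272 CPM in runs 1 to 3, 374 and 385 CPM in run 4 and 356 to 517 CPM in runs 5 and 6 (adjusted p = 0.0227). Of the 18 astrocyte genes, Gfap, Aqp4 and Etv5 passed the test, where 2% of all genes did. Etv5 went the other way from Gfap, with run means of 111 to 119 CPM in runs 1 to 3 and 97.6 to 104 CPM in runs 4 to 6. That count of 3 was 0 without X4571, X4677, X4679, X4695 or X4697 and 1 without X4570 or X4761, although the count over all genes was higher without X4761. The Gfap call held in 17 of 27 settings, and its highest adjusted p was 0.106. Spp1, osteopontin, was chosen after its values were seen. It was at 21.6 to 57.0 CPM in the 8 animals and 59.5 to 152 CPM in the 4, and did not pass the test (adjusted p = 0.0508).

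Other genes, some of neurons and some of glia, were higher in runs 4 to 6 than in runs 1 to 3, a split also chosen after the values were seen. Rbfox3, the neuronal nuclear antigen NeuN, was at 157 to 191 CPM in the 6 animals of runs 1 to 3 and 219 to 295 CPM in the 6 of runs 4 to 6 (adjusted p = 0.00212). Homer3, a scaffold of Purkinje cell synapses, was at 57.0 to 65.6 and 73.0 to 89.1 CPM (adjusted p = 0.00244). Soga1 was at 51.3 to 64.0 and 70.5 to 89.9 CPM (adjusted p = 0.000879). The groups did not overlap for these 3 genes, and 3.07% of all genes tested had runs 4 to 6 above runs 1 to 3 in this way. Run 1 held the lowest mean and run 6 the highest, and the ratio of these was 1.46 to 1.67.

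Of 12 genes of early granule neurons, 6 differed between runs: Rbfox3, Neurod1, Nhlh1, Cntn2, Sema6a and Neurod2, where 2% of all genes did. For 5 of the 12, every animal of runs 4 to 6 lay above every animal of runs 1 to 3, against 3.07% of all genes. Cntn2, the adhesion molecule TAG-1 of young granule neurons, was at 333 to 442 CPM in runs 1 to 3 and 520.1 to 792 CPM in runs 4 to 6 (adjusted p = 0.0129). The count of 6 was 1 without X4570 or X4571, 2 without X4685 or X4697 and 3 without X4677 or X4679, settings in which the count over all genes fell as well. Neurod1 was called in 8 of 27 settings. Of the early granule genes not called, Nhlh2, Pax6 and Unc5c had higher run means in runs 4 to 6. Tubb3 had run means of 740 to 774 CPM, lowest in run 4, and Tlx3 was highest in run 2 (9.72 CPM). Of 17 Purkinje cell genes, 3 differed (Pcp2, Lhx1 and Homer3), against 2% of all genes, and 9 without X4770, where the count over all genes rose from 378 to 691. Pcp2, a Purkinje cell protein, was at 61.2 to 70.9 CPM in runs 1 to 3 and 79.5 to 110.0 CPM in runs 4 to 6 (adjusted p = 0.0227), a call that held in 19 of 27 settings. Purkinje cell genes not called went both ways. Foxp2 (run means of 44.4 to 50.1 CPM in runs 1 to 3 and 32.2 to 35.6 CPM in runs 4 to 6), Ebf2 and Skor2 were lower in runs 4 to 6. Ppp1r17, Rgs8 and Slc1a6 had higher run means there. Of the glial genes, Aqp4, the water channel of astrocyte endfeet, was at 385 to 487 and 522 to 649.7 CPM (adjusted p = 0.0383). Bcas1, a gene of newly formed oligodendrocytes, was at 87.9 to 101 and 105 to 137 CPM (adjusted p = 0.00828). The smallest adjusted p of a precursor gene was that of Mycn (0.127), and that of a replication gene was that of Mcm4 (0.315).

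Other genes were low in the later numbers. Lrrc23, a protein of motile cilia, was at 8.19 to 11.9 CPM in runs 1 to 3, 8.13 and 7.69 CPM in run 4, 4.38 and 6.19 CPM in run 5 and 3.44 and 3.37 CPM in run 6 (adjusted p = 0.00212). Of 9 ependymal genes, Rsph1, Dynlrb2, Cfap126 and Tekt1 differed between runs, where 2% of all genes did, and each was highest in run 1 and lowest in run 6, by 2.79- to 4.03-fold. Tekt1, a filament protein of cilia, was at 5.43 and 6.13 CPM in run 1 and 1.95 and 1.15 CPM in run 6 (adjusted p = 0.0129). That count of 4 was 0 without X4571 and 2 without X4570 or X4685, while Lrrc23 was called in all 27 settings. The ependymal count was also 0 without run 1 and 0 without run 6. The 3 libraries low in choroid plexus lie in runs 5 and 6. Lum and Bgn, matrix genes of the meninges, were lowest in these 3 as well (adjusted p = 0.0227 and 0.0122). Heph, an iron oxidase, was at 11.7 to 16.6 CPM in runs 1 to 3 and 7.22 to 10.5 CPM in runs 4 to 6 (adjusted p = 0.00244). Mt2, a metallothionein, was at 21.1 and 18.7 CPM in run 1 and 11.4 and 11.9 CPM in run 6 (adjusted p = 0.0123), a call lost without either of those runs.

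Fos and Trpc2 followed neither split. Fos was at 8.70 and 8.78 CPM in run 1, 11.7 and 12.7 in run 2, 6.38 and 9.16 in run 3, 14.1 and 13.8 in run 4, 16.2 and 15.2 in run 5 and 10.9 and 10.5 in run 6 (adjusted p = 0.00897). The animals of runs 4 and 5 were the highest 4. Fos was the one of 13 immediate early genes to pass, where 2% of all genes did, and Egr1 did not (adjusted p = 0.215). Trpc2, a channel of pheromone-sensing neurons, had the smallest p of all genes (adjusted p = 0.00057). It was at 0 in both animals of run 4 and at 2.20 to 3.57 CPM in the other 10. Against the 0.0475 CPM that 0 counts over both animals allow, the lowest mean of another run was at least 55.7-fold higher. The counts are estimates, and the part of read assignment between overlapping transcripts was not tested. Without run 4 Trpc2 did not pass the test (adjusted p = 0.949).

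**Figure D4:**
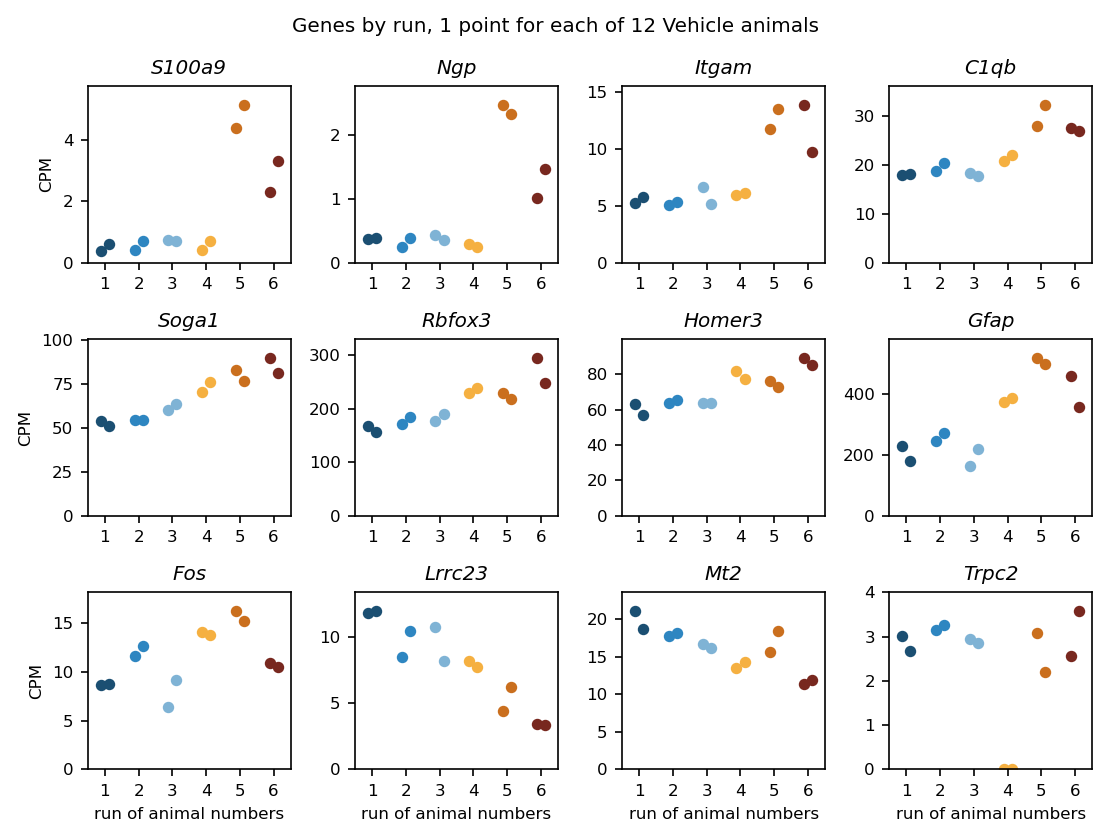
CPM of 12 genes in each of the 12 animals (1 point per animal, linear axes from 0), by run of animal numbers. S100a9, Ngp, Itgam and C1qb are high in runs 5 and 6, Soga1, Rbfox3 and Homer3 in runs 4 to 6, Lrrc23 and Mt2 are lowest in run 6, and Trpc2 is at 0 in run 4.

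Pairs of genes were compared across animals to see which parts of the tissue varied together. Of 20 pairs chosen from knowledge of the cell types, 5 passed an adjusted p under 0.05 (two-sided permutation test of Pearson's r on log2 CPM, 100000 resamples, Benjamini-Hochberg over the 20), of which 4 are described. Ttr and Folr1, taken over 10 animals because X4761 and X4770 form a cluster of their own, gave r = 0.990 (adjusted p = 0.0002) and rho = 0.952 (adjusted p = 0.0018, permutation tests). Without X4679 and X4768, the farthest from the median, r was 0.968, and within the 4 whole runs 0.785 (adjusted p = 0.156, exact permutation test). Col1a1 and Col3a1, collagens of fibroblasts, gave r = 0.913 (adjusted p = 0.0004) and rho = 0.867 (adjusted p = 0.0036, permutation tests). Their r was 0.811 without X4761 and X4768 and 0.895 within runs (adjusted p = 0.0595, exact permutation test), which missed the threshold.

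Animals with more Mbp, of myelin, also had more Gabra6, of mature granule neurons (r = 0.839, adjusted p = 0.00205, rho = 0.818, adjusted p = 0.00865, permutation tests, n = 12). Without X4762 and X4768 r was 0.712. Within runs r was 0.647 and missed the threshold (adjusted p = 0.246, exact permutation test), as it did without X4697 (r = 0.647, adjusted p = 0.149, permutation test). Cx3cr1 and Csf1r, both microglial, gave r = 0.716 (adjusted p = 0.0322), but rho was 0.573 (adjusted p = 0.159) and within runs r was 0.622 (adjusted p = 0.246, permutation tests). Without X4761 and X4762 r was 0.691. The call was lost without X4570, X4686, X4695, X4697, X4762 or X4768, with r from 0.555 to 0.717 and adjusted p from 0.0519 to 0.174 (permutation tests).

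The other 15 pairs did not pass. Mbp and Pdgfra, the latter of oligodendrocyte precursors, gave r = 0.412 (adjusted p = 0.261, permutation test). Gli1 and Ptch1, both targets of Sonic hedgehog, gave r = -0.118 (adjusted p = 0.769, permutation test) over ranges of 79.2 to 104 and 128 to 147 CPM. Mki67 and Atoh1 gave r = 0.169 (adjusted p = 0.706, permutation test), and Actb and Gapdh 0.549 (adjusted p = 0.152, permutation test). Gad1 and Pax2 gave r = 0.496 over 12 animals (adjusted p = 0.168, permutation test) and -0.831 on deviations from the run means (adjusted p = 0.0712, exact permutation test), with the opposite sign.

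**Figure D5:**
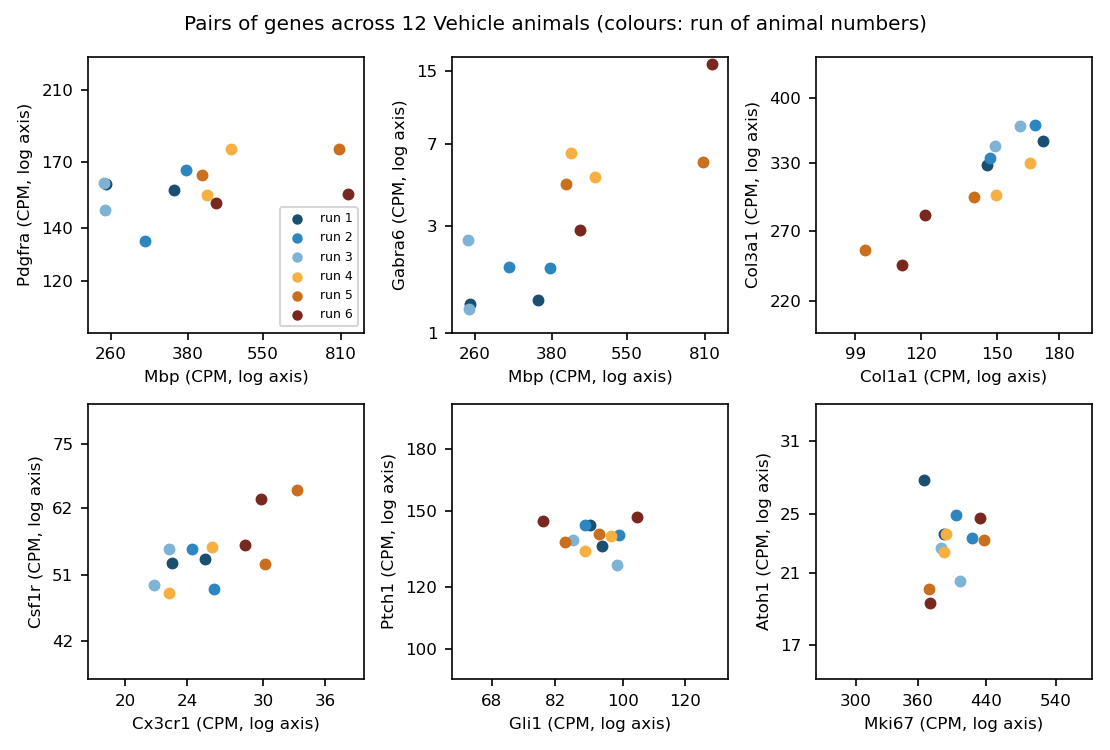
CPM of 6 pairs of genes in the 12 animals (1 point per animal, log axes, coloured by run). Mbp with Gabra6 and Col1a1 with Col3a1 rise together (r = 0.839 and 0.913), Mbp with Pdgfra gave r = 0.412, Cx3cr1 with Csf1r r = 0.716, and Gli1 with Ptch1 and Mki67 with Atoh1 gave r = -0.118 and 0.169.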

How the data were processed

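TruSeq mRNA libraries of 12 Vehicle animals were sequenced paired-end. The authors used nf-core/rnaseq; the submitters' notes name STAR, Salmon, limma and GRCm39, with no version (not given in the sources used here), nor an annotation release or strand setting. What the authors deposited are estimated counts, 55416 gene rows, 22290 of them at 0 in all 12; 11.003% of the values lay over 0.01 from a whole number and all were rounded. The labels and the study name different RNA kits. Replicates are animals; the numbers pair no samples.

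edgeR 4.0.16 (R 4.3.3) gave filterByExpr, TMM, dispersions and the test between runs (robust glmQLFit, glmQLFTest). Counts were tested against Poisson by chi-square, with Benjamini-Hochberg adjustment over all genes tested. Components and pairs used log2 CPM (prior count 2). Exon lengths were matched by gene name to GENCODE on GRCm38 (50407 rows, 99.62% of counts), another build than the files', so levels per length are approximate. The tests were checked on simulated counts. There the test between runs called 50% of genes raised 1.5-fold in 1 run and 75.8% of those raised 2-fold. It called 0.0271% of unchanged genes. A gene that did not pass may thus still differ between runs. limma 3.58.1 and DESeq2 1.42.0 served as alternatives, and Python 3.11.15 with numpy 2.4.6, scipy 1.17.1, pandas 2.3.3 and matplotlib 3.10.9 did the rest. Floors cover counting error only.

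Members and lists were chosen with earlier results of these data known. The genes named are the 20 most counted and the 20 highest per length; in each list the 4 highest, the 2 of highest and 2 of lowest BCV and those at 0; the 20 of highest BCV above 4 CPM and the 10 of lowest above 32 CPM; the 10 heaviest on each side of 3 components; the 15 of smallest p between runs; and the genes of the pairs. Other list members and the genes so marked were named after their values were seen. Ahsp and Bmal1 were not found under those names. No treatment comparison was made, and results for some genes are not reported here.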

Additional observations from a re-analysis of the deposited data

How the results depend on the processing

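The number of genes that differ between runs was the least stable result. It was 378 as reported, 2513 with no filter on low counts, 204 without robust estimation, 212 with limma-trend, 1081 with DESeq2 and 1691 leaving out both animals nearly lacking Ttr. Among alternatives chosen after seeing the data it was 702 leaving out both animals high in Hoxa5, and 66, 222, 240, 228, 823 and 151 without runs 1 to 6 in turn. Leaving out single animals gave 71 to 901. The cause was not tested, although fewer animals enter the fits that leave some out. The median BCV was 20.2% with no filter, which adds genes of few counts. The share of component 1 was 38.9% with at least 1 CPM required in all libraries. The 100 most counted genes held 12.9% without mitochondrial genes. The pairs past the threshold numbered 1 on deviations from run means, and 3 to 7 leaving out single animals. No paired analysis was possible because 1 group alone was analysed, so that no animal has a partner in another. With 2 animals to a run, calls rest on few samples, and genes under 1 CPM rest on few counts.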
